A study of Rattus norvegicus with 20 samples.

Results

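Autotaxin and lysophosphatidic acid genes were examined in RNA sequencing libraries of rat leg muscle. The members are 6 genes taken by gene name from a table of 21926 genes: Enpp2, the gene of autotaxin, the receptor genes Lpar1, Lpar4 and Lpar6, and the phosphatase genes Plpp1 and Plpp3. They were selected on their measured values, since counts and FPKM of all 20 libraries had been seen when the 6 names were put together, so their differences are given here as a description with no p-value. Whether the fit across all genes called a member is part of that description and is not independent evidence, since the same values chose the members. FPKM is the level that the authors deposited, adjusted for the length of the transcript and the depth of the library. The libraries form 4 groups of 5: gastrocnemius after hindlimb ischemia, gastrocnemius after a sham operation, soleus after hindlimb ischemia and soleus after a sham operation. All rats were Sprague Dawley, and ischemia was made by closing the ilio-femoral artery with a catheter from inside the vessel, which the sample titles call PAD. The series title calls the ischemia chronic. The labels give neither the time after the operation nor the age of the rats. The labels do not say whether each library comes from its own rat, or whether gastrocnemius and soleus libraries of the same number share a rat. The main fit treated all 20 libraries as independent. A p-value thus measures the spread between these libraries, which may in part be technical.

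Autotaxin is a secreted enzyme that removes choline from lysophosphatidylcholine and so makes lysophosphatidic acid, LPA, in blood and tissue fluid. LPA acts on cells through G protein-coupled receptors, and so changes cell shape, migration and survival. Lipid phosphate phosphatases at the cell surface, among them the products of Plpp1 and Plpp3, end the signal by removing the phosphate of LPA. In skeletal muscle LPA has been studied as a signal to the connective tissue cells between the fibres. The gastrocnemius of the rat is a mainly fast muscle, while the soleus is a mainly slow one.

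The libraries held between 53572270 and 85416565 counts each. Sham soleus library 4 stood apart, with 8048 genes at 1 FPKM or more, where the other 4 libraries of its group had 10644 to 10876, and values without it are given beside the results that it moves most. Of the 6 members, 5 passed the filter on low values, a level of 1 FPKM reached in 5 or more libraries, which left 11693 genes for the test. Lpar4 did not pass, with 1 FPKM or more in 1 library of 20. A gene was called when edgeR's quasi-likelihood test gave it an adjusted p below 0.05 after Benjamini-Hochberg adjustment over all tested genes, and a log2 fold change is the fitted one after TMM scaling of the libraries.

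The first question of the design was what ischemia changed in each muscle. In soleus, Enpp2 was the 1 member called of the 5 tested, and it was higher after ischemia, beside 1.03% of all tested genes called (121 of 11693). In FPKM the libraries of ischemic and sham soleus did not overlap for Enpp2 and Lpar1 among the 5 tested members. Such a separation was seen for 18.6% of all tested genes. In gastrocnemius no member was called and none separated, where 0% of all tested genes were called and 1.17% separated. DESeq2 and limma-voom, always run here with library quality weights, called no member in gastrocnemius either. Over all genes they called 11 and 571, and edgeR found 727 at an unadjusted p below 0.05. No member was called for the difference between the ischemia responses of gastrocnemius and soleus, a comparison in which edgeR called 0% of the tested genes, with 758 at an unadjusted p below 0.05, DESeq2 called 2 and limma-voom called 1. The number of all genes called in soleus depended on single libraries and lay between 1 and 745 when each of the 20 libraries was left out in turn.

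Enpp2 (ENSRNOG00000004089) lies on chromosome 7 at 94480396 to 94563001, minus strand, in the coordinates of the deposited table (build not given in the sources used here). Its level was 5.16, 6.72, 7.76, 9.21 and 6.95 FPKM in the 5 ischemic soleus libraries, against 4.21, 2.98, 2.99, 1.30 and 3.99 FPKM in the 5 sham soleus libraries. Every ischemic soleus library was above every sham one, and sham soleus library 4 was the lowest of the 20. The means were 7.16 ± 1.49 FPKM in ischemic soleus and 3.10 ± 1.15 FPKM in sham soleus (SD, n = 5 each), a ratio of 2.31, or 2.02 without sham soleus library 4. After TMM scaling the log2 fold change of Enpp2 in soleus was 0.89 ± 0.16 (SE), and 0.83 without sham soleus library 4. Enpp2 was called in 13 of the 20 fits that left out 1 library. The call was lost without ischemic gastrocnemius library 3 or 5 (log2 fold change 0.89 in both), sham gastrocnemius library 5 (0.89), ischemic soleus library 2 (0.91) or 4 (0.80), and sham soleus library 1 (0.97) or 2 (0.84), so that the size moved little while the adjusted p crossed the threshold. It was also lost when only the 2 soleus groups were fitted, at 0.91, and with no filter on low values, at 0.85.

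In gastrocnemius Enpp2 had 6.38, 5.96, 6.41, 5.27 and 5.42 FPKM after ischemia, against 5.82, 4.60, 5.59, 5.94 and 5.88 FPKM after sham. The gastrocnemius groups overlapped, and their means of 5.89 ± 0.527 FPKM in ischemia and 5.57 ± 0.554 FPKM in sham differed by less than 1 SD. The log2 fold change of Enpp2 in gastrocnemius was -0.01 ± 0.16 with TMM scaling and 0.08 with library totals alone, so its sign was not fixed. The response of Enpp2 in gastrocnemius minus that in soleus was -0.90 ± 0.22 on the log2 scale, and this difference was not called. Ordered by mean level, Enpp2 ran from ischemic soleus over ischemic gastrocnemius and sham gastrocnemius down to sham soleus, and only the last neighbours, sham gastrocnemius and sham soleus, did not overlap.

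**Figure D1:**
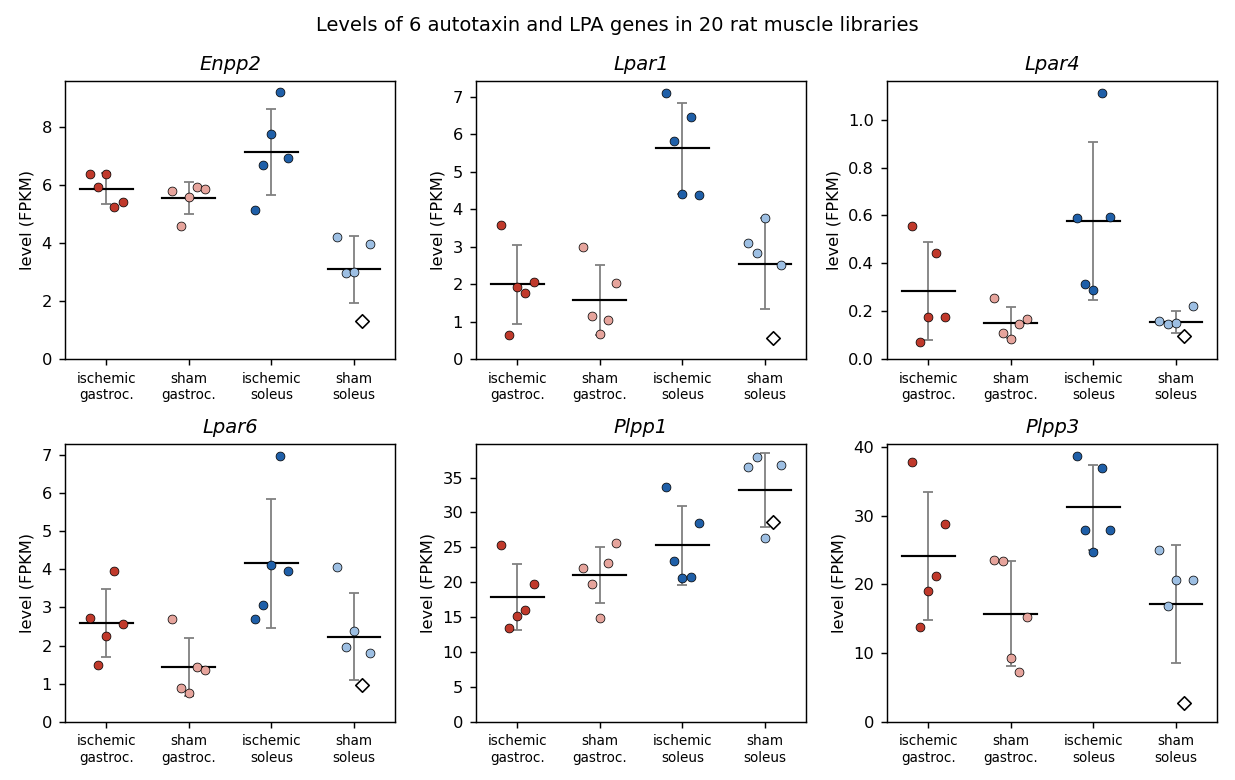
Level of each of the 6 members in FPKM (vertical axis, linear from 0) in the 20 libraries by group. Points are libraries, the black line is the mean, the grey bar is 1 SD, and the open diamond is sham soleus library 4. Enpp2 sits between 5.16 and 9.21 FPKM in ischemic soleus and between 1.30 and 4.21 FPKM in sham soleus.

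Lpar1 (ENSRNOG00000013656; chromosome 5, 75557042 to 75676584, minus strand) encodes the LPA receptor that is widespread on fibroblasts and on Schwann cells. In soleus it had 7.10, 5.82, 4.40, 6.46 and 4.37 FPKM after ischemia, against 3.10, 2.82, 3.76, 0.549 and 2.52 FPKM after sham. All 5 ischemic libraries were above all 5 sham ones, and sham soleus library 4 was far below its group. The means were 5.63 ± 1.22 FPKM in ischemic soleus and 2.55 ± 1.21 FPKM in sham soleus, or 3.05 ± 0.528 FPKM (n = 4) without that library. The log2 fold change of Lpar1 in soleus was 0.90 ± 0.39, not called, and 0.71 without sham soleus library 4. Lpar1 was called in soleus by limma on log2(FPKM + 1), at 0.98, beside 1590 of all 11693 tested genes called higher and 57 lower. The median of all tested genes in that fit was 0.31. Lpar1 was also called by limma-voom, at 0.65, beside 3057 of all tested genes. In gastrocnemius the level of Lpar1 was 3.58, 0.645, 1.92, 1.77 and 2.05 FPKM after ischemia, against 2.98, 1.16, 0.673, 1.04 and 2.02 FPKM after sham. Library 1 was the highest of its group in both gastrocnemius groups, the groups overlapped, and the log2 fold change was 0.22 ± 0.39.

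Lpar6 (ENSRNOG00000015577; chromosome 15, 55126953 to 55128761, plus strand) encodes an LPA receptor that in human is needed for hair growth. Its whole length lies inside Rb1, which is read from the opposite strand, and no label says whether the counting used the strand, so Lpar6 values are uncertain. In soleus Lpar6 had 2.69, 3.06, 4.11, 6.98 and 3.95 FPKM after ischemia, against 4.05, 1.96, 2.37, 0.958 and 1.81 FPKM after sham, and sham library 1 lay among the ischemic ones. In gastrocnemius it had 2.71, 1.5, 2.24, 3.96 and 2.56 FPKM after ischemia, against 2.70, 0.893, 0.753, 1.44 and 1.37 FPKM after sham, and again sham library 1 was the sham library inside the ischemic range. The log2 fold changes were 0.57 ± 0.35 in soleus and 0.77 ± 0.35 in gastrocnemius, neither called. The response of Lpar6 in gastrocnemius minus that in soleus was 0.20 ± 0.49 on the log2 scale and turned to -0.05 with library totals alone.

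Lpar4 (ENSRNOG00000002428; chromosome X, 78042859 to 78056347, plus strand) encodes an LPA receptor that in mouse takes part in blood vessel formation. It was the lowest of the 3 receptor members, with 22 to 291 counts a library. In soleus it had 0.589, 0.313, 0.289, 1.11 and 0.592 FPKM after ischemia, against 0.160, 0.146, 0.151, 0.0959 and 0.223 FPKM after sham. The soleus groups did not overlap, with or without sham soleus library 4. The share of 18.6% given above covers tested genes only and so not Lpar4, whose levels were low. In gastrocnemius it had 0.558, 0.0706, 0.176, 0.445 and 0.176 FPKM after ischemia, against 0.254, 0.110, 0.0843, 0.146 and 0.166 FPKM after sham, and there the groups overlapped. In a fit with no filter on low values the log2 fold change of Lpar4 was 1.46 ± 0.46 in soleus and 0.77 ± 0.46 in gastrocnemius, not called in either muscle.

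Added up, Lpar1, Lpar4 and Lpar6 came to 10.4 ± 2.42 FPKM in ischemic soleus and 4.93 ± 2.16 FPKM in sham soleus, or 5.77 ± 1.27 FPKM without sham soleus library 4. The lowest ischemic soleus library, at 8.81 FPKM, was above the highest sham one, at 7.31 FPKM. In gastrocnemius the sum was 4.87 ± 1.80 FPKM after ischemia and 3.16 ± 1.72 FPKM after sham, with overlapping libraries. Lpar1 made up 55.1% ± 10.3 of this sum in ischemic soleus and 49.8% ± 11 in sham soleus. In gastrocnemius it made up 39.5% ± 10.3 after ischemia and 48.9% ± 6.90 after sham. Of the LPA receptor genes outside the members, Lpar3 had a higher mean than Lpar4 in all 4 groups and a lower one than Lpar1 and Lpar6. Lpar3 averaged 0.662 ± 0.367 FPKM in ischemic soleus and 0.223 ± 0.144 FPKM in sham soleus, and 0.318 ± 0.137 FPKM in ischemic gastrocnemius and 0.464 ± 0.219 FPKM in sham gastrocnemius. Lpar5 had a group mean of at most 0.108 FPKM, and Lpar2 was listed at 0 in all libraries but 1. None of these 3 receptors passed the filter.

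Plpp1 and Plpp3 encode lipid phosphate phosphatases of the same family, both of which take the phosphate off LPA in the outer face of the membrane. Plpp1 (ENSRNOG00000009980) lies on chromosome 2 at 44664124 to 44726689, plus strand, and its end overlaps Mtrex on the opposite strand, so part of its counts could belong to Mtrex if strand was not used. Plpp3 (ENSRNOG00000008116) lies on chromosome 5 at 124690214 to 124765498, plus strand. The fitted log2 fold changes of the pair stood on opposite sides of 0 after ischemia, and neither gene was called in the main fit. Any link of sequence and level was not tested, and the 250 bases before the start of each are shown side by side. They come from RefSeq promoters of build GRCr8, which held 4 of the 6 members (Lpar4, Lpar6, Plpp1 and Plpp3), and are written 5′ to 3′ on the plus strand with motif letters in capitals.
Plpp1, GRCr8 chr2:46172327-46172576, plus strand: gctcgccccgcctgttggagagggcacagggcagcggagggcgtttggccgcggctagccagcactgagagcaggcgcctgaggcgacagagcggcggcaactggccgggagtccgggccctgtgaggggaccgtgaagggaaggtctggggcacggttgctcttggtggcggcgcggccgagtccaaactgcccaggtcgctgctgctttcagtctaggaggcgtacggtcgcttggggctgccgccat
Plpp3, GRCr8 chr5:125155750-125155999, plus strand: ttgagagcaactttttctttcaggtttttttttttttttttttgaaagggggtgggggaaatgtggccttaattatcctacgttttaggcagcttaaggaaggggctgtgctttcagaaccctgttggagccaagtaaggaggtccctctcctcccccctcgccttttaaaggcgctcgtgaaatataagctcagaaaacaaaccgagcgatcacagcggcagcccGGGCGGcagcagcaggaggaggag
The capitals in the Plpp3 promoter mark GGGCGG, the GC box, at -24 to -19 from the start. The letters searched on both strands were ACGTG (core of the hypoxia response element), GGAATG (bound by TEAD factors), the GC box, the TATA box TATAAA and, by name, the CArG box that serum response factor binds. Of 33469 rat promoters of this length, 16.6% held ACGTG, 12.1% GGAATG, 30.5% GGGCGG, 12.9% TATAAA and 1.5% the CArG box. None of these letters was found in the 250 bases of Plpp1. The Plpp1 promoter had 70.0% G and C with 23 CG pairs and the Plpp3 promoter 49.6% with 9, where the median promoter had 51.2% and 5. Of the other promoters found, Lpar4 held GGGCGG at -67 to -62 and Lpar6 held GGAATG on the minus strand at -142 to -137.

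In soleus Plpp1 had 33.6, 23.1, 20.6, 20.7 and 28.5 FPKM after ischemia, against 36.5, 37.9, 26.3, 28.6 and 36.8 FPKM after sham. Of the ischemic libraries 3 were below all sham ones, and libraries 1 and 5 lay inside the sham range. The means were 25.3 ± 5.67 FPKM in ischemic soleus and 33.2 ± 5.33 FPKM in sham soleus. The log2 fold change of Plpp1 in soleus was -0.83 ± 0.22 with TMM scaling and -0.38 ± 0.20 with library totals alone, and it was not called in either. It was called by DESeq2 (-0.85), with DESeq2's size factors in edgeR (-0.85) and by limma-voom with library weights (-0.63), and in 4 of the 20 fits without 1 library, those without ischemic gastrocnemius library 1 or 2 (-0.83 in both) and without sham soleus library 3 (-0.95) or 5 (-0.86). Without sham soleus library 4 it was -0.62 and not called. In depth-scaled counts after TMM scaling (CPM), that library had the highest Plpp1 value of the 20, at 89.04. The other sham soleus libraries had 37.28 to 53.97 CPM. Its FPKM of 28.6 lay inside the range of its group instead. The ratio of mean Plpp1 FPKM in ischemic over sham soleus was 0.762 with that library and 0.735 without it. The TMM fold change in soleus thus leaned on 1 library that FPKM did not set apart. In gastrocnemius Plpp1 had 25.3, 13.4, 15.2, 16.0 and 19.7 FPKM after ischemia, against 22, 19.8, 14.8, 22.8 and 25.6 FPKM after sham, with a log2 fold change of -0.33 ± 0.22.

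Plpp3 had 38.7, 27.9, 24.7, 37.0 and 27.9 FPKM in ischemic soleus, against 25.0, 16.8, 20.7, 2.68 and 20.6 FPKM in sham soleus. The highest sham library reached just above the lowest ischemic one, and sham soleus library 4 was far below all others. The means were 31.2 ± 6.22 FPKM in ischemic soleus and 17.2 ± 8.60 FPKM in sham soleus, or 20.8 ± 3.35 FPKM without that library. In gastrocnemius Plpp3 had 37.8, 13.8, 19.1, 21.3 and 28.8 FPKM after ischemia, against 23.5, 23.4, 9.27, 7.31 and 15.3 FPKM after sham, a wide spread in both groups. The log2 fold changes were 0.64 ± 0.35 in soleus, 0.41 without sham soleus library 4, and 0.52 ± 0.35 in gastrocnemius, and none was called.

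A ratio of both phosphatases within a library does not depend on how libraries are scaled. Plpp3 made up 53.5%, 54.7%, 54.5%, 64.2% and 49.5% of the summed Plpp1 and Plpp3 FPKM in the ischemic soleus libraries, against 40.7%, 30.7%, 44.1%, 8.58% and 35.9% in the sham soleus libraries. The soleus groups did not overlap, also without sham soleus library 4. In gastrocnemius the Plpp3 share was 59.9%, 50.6%, 55.7%, 57.1% and 59.4% after ischemia, against 51.6%, 54.2%, 38.5%, 24.2% and 37.4% after sham. Here sham libraries 1 and 2 reached into the ischemic range, and the ischemic libraries were the more alike, with an SD of 3.72 percentage points against 12.1 in sham. The summed level of both was 56.5 ± 10.1 FPKM in ischemic soleus and 50.4 ± 11.9 FPKM in sham soleus, or 55.1 ± 6.06 FPKM without sham soleus library 4.

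Set against autotaxin, the summed phosphatase level was 8.36 ± 3.30 times that of Enpp2 in ischemic soleus and 17.4 ± 4.03 times in sham soleus, or 15.8 ± 1.82 times without sham soleus library 4. The ischemic soleus libraries ran between 5.83 and 14.0 and the sham ones between 14.4 and 24.1, so the groups came close without overlapping. In gastrocnemius the ratio was 7.16 ± 2.28 after ischemia and 6.71 ± 2.05 after sham, with wide overlap. The 3 groups other than sham soleus thus had mean ratios between 6.71 and 8.36.

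**Figure D2:**
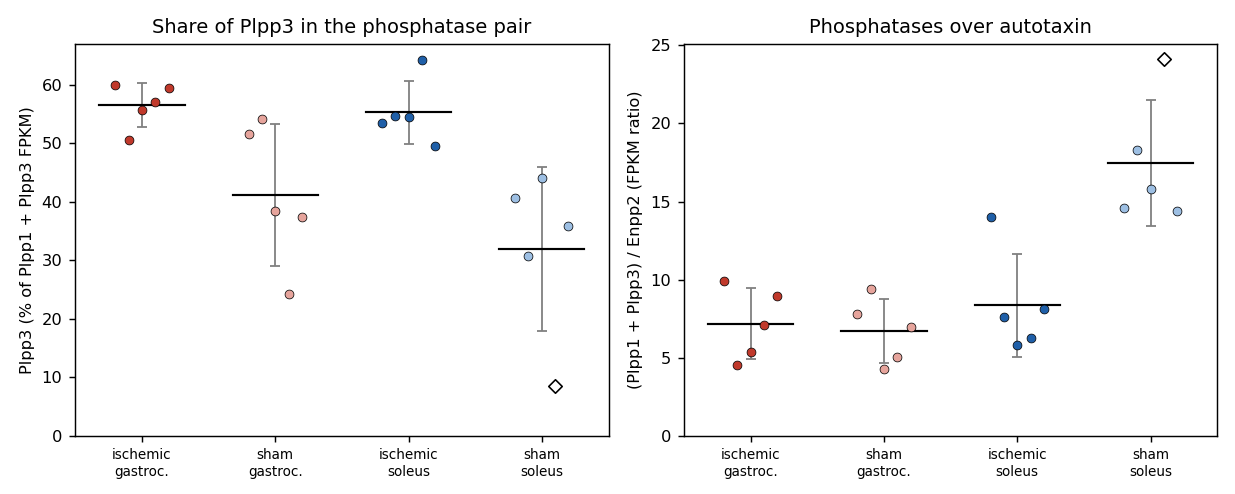
Left, the share of Plpp3 in the summed Plpp1 and Plpp3 FPKM (percent). Right, the summed Plpp1 and Plpp3 FPKM divided by the Enpp2 FPKM. Both axes start at 0, points are libraries, the black line is the mean, the grey bar 1 SD and the open diamond sham soleus library 4. The ischemic soleus share lies between 49.5% and 64.2%, and the sham soleus share between 8.58% and 44.1%.

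The second question was how the muscles differ. After sham, Enpp2 and Plpp1 were the 2 members called of the 5 tested, beside 24.9% of all tested genes. In FPKM their gastrocnemius and soleus libraries did not overlap, as for 15.5% of all tested genes. After TMM scaling the Plpp1 libraries did overlap, since sham gastrocnemius library 5 had 43.1 CPM and sham soleus library 3 had 37.28 CPM. Enpp2 was higher in sham gastrocnemius, at 5.57 ± 0.554 FPKM, than in sham soleus, at 3.10 ± 1.15 FPKM, with a log2 fold change of 0.97 ± 0.16 that was called in all 20 fits without 1 library. Plpp1 was lower in sham gastrocnemius, at 21.0 ± 4.05 FPKM, than in sham soleus, at 33.2 ± 5.33 FPKM, with a log2 fold change of -0.67 ± 0.22. The Plpp1 call was lost without sham soleus library 4 (-0.46) and without sham gastrocnemius library 2 (-0.63) or 3 (-0.58). Sham soleus library 4 had the highest Plpp1 value of all libraries after TMM scaling, at 89.04 CPM, but not in FPKM. The call was also lost with limma-voom, where the log2 fold change was -0.29, and with the sham groups fitted alone (-0.64). Plpp3 showed no such distance between the sham muscles (15.7 ± 7.59 FPKM in gastrocnemius and 17.2 ± 8.60 FPKM in soleus), and its log2 fold change of 0.07 ± 0.35 turned to -0.11 with library totals alone.

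After ischemia no member was called between the muscles, beside 12.6% of all tested genes called. DESeq2 and limma-voom each called 1 member, Lpar1, beside 2198 and 5105 of all 11693 tested genes. Lpar1 was also the 1 tested member whose libraries did not overlap in FPKM, as for 34.1% of all tested genes. It stood at 1.99 ± 1.05 FPKM in ischemic gastrocnemius and 5.63 ± 1.22 FPKM in ischemic soleus, a log2 fold change of -1.18 ± 0.39. It was called in 4 of the 20 fits without 1 library, those without ischemic gastrocnemius library 1 (-1.43), sham gastrocnemius library 1 or 3 (-1.18 in both) or sham soleus library 4 (-1.18). The Enpp2 levels of the ischemic muscles were 5.89 ± 0.527 FPKM in gastrocnemius and 7.16 ± 1.49 FPKM in soleus, and their log2 fold change was 0.07 ± 0.16 with TMM scaling and -0.28 with library totals alone. Scaling bears on all values of this comparison: with library totals alone the median of all tested genes was -0.38 and 441 genes were called higher and 2192 lower in gastrocnemius, against a median of -0.03 and 920 higher and 553 lower with TMM. For ischemia against sham in soleus the same change moved the median of all genes to 0.31, with 387 called higher and 11 lower. With TMM the median was -0.04, with 62 higher and 59 lower. The deposited FPKM carried a like shift in soleus, with a median of 0.31 for limma on log2(FPKM + 1).

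The other members had their own order of group means. Lpar1 ran from ischemic soleus over sham soleus and ischemic gastrocnemius to sham gastrocnemius, and only the first neighbours, ischemic and sham soleus, did not overlap. Lpar4, Lpar6 and Plpp3 were each highest in ischemic soleus, then in ischemic gastrocnemius, sham soleus and sham gastrocnemius, except that sham soleus at 0.155 FPKM and sham gastrocnemius at 0.152 FPKM were all but level for Lpar4. For these 3 genes all neighbours in the order overlapped. Plpp1 ran from sham soleus over ischemic soleus and sham gastrocnemius to ischemic gastrocnemius, again with overlap between all neighbours.

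**Figure D3:**
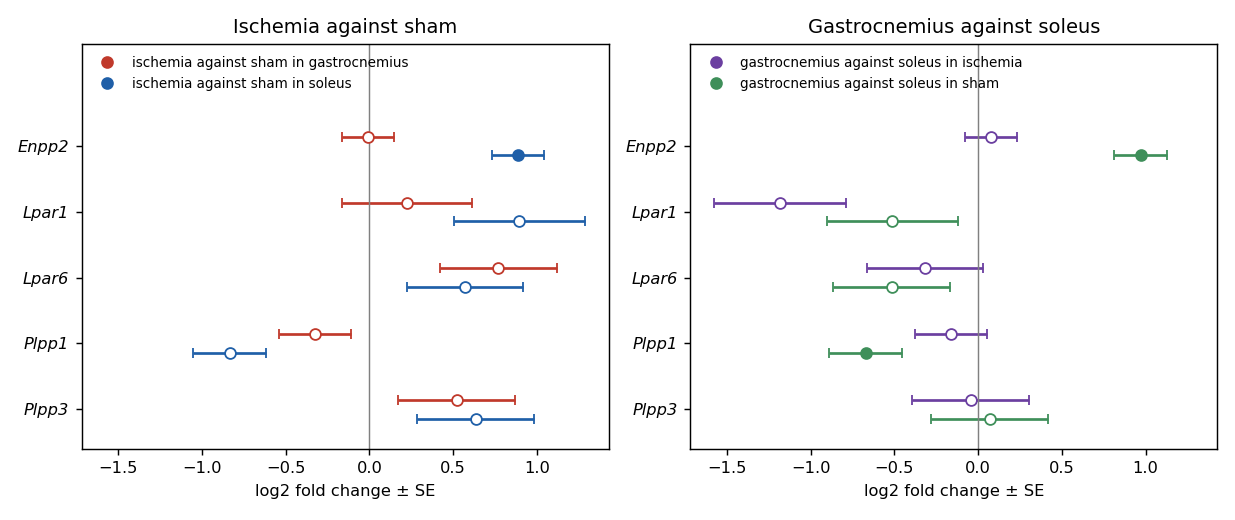
Fitted log2 fold changes of the 5 tested members with their SE (horizontal axis). Left, ischemia against sham in gastrocnemius (red) and soleus (blue). Right, gastrocnemius against soleus after ischemia (purple) and after sham (green). Filled points were called by edgeR at an adjusted p below 0.05. Enpp2 is called in soleus at 0.89 and between the sham muscles at 0.97, and Plpp1 between the sham muscles at -0.67.

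The rest of the LPA pathway was read from lists of 65 genes, of which 62 had a row in the table and 52 passed the filter. In soleus edgeR called 1 of these 52, beside 121 of all 11693 tested genes. At an unadjusted edgeR p below 0.05 were 12 of the 52, beside 3256 of all tested genes. Without sham soleus library 4, 5 of the 52 were called, beside 718 of all genes. The 1 gene called with all libraries was Enpp1, a relative of autotaxin on the cell surface. It splits ATP and makes pyrophosphate, an inhibitor of mineral deposits. Enpp1 had 4.10, 3.24, 3.11, 4.16 and 2.90 FPKM in ischemic soleus, against 2.02, 2.02, 1.87, 0.793 and 1.64 FPKM in sham soleus, and the groups did not overlap. Its log2 fold change was 0.74 ± 0.17 with an adjusted p of 0.0460 in edgeR's quasi-likelihood test, and it was called in 7 of the 20 fits without 1 library, with adjusted p between 0.00111 and 0.153 over all 30 settings. In gastrocnemius Enpp1 had 3.47, 1.87, 3.18, 2.84 and 2.53 FPKM after ischemia, against 1.82, 1.93, 1.08, 1.76 and 1.32 FPKM after sham, with a log2 fold change of 0.72 ± 0.17 and an edgeR adjusted p of 0.692. DESeq2 called it there (adjusted p = 0.0457) and limma-voom did too (adjusted p = 0.0102), while edgeR called none of the 52 pathway genes in gastrocnemius, with 3 at an unadjusted p below 0.05. For the difference between the ischemia responses edgeR called 0 of the 52, with 0 at an unadjusted p below 0.05, and DESeq2 and limma-voom called 0 as well.

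The other Enpp genes, picked out here after their values were seen, were also higher in ischemic soleus in the fit without being called. Enpp3 averaged 8.51 ± 1.87 FPKM in ischemic soleus and 3.05 ± 0.536 FPKM in sham soleus (log2 fold change 1.08 ± 0.35, edgeR adjusted p = 0.0751). Enpp5 averaged 2.50 ± 0.988 FPKM in ischemic soleus and 0.793 ± 0.463 FPKM in sham soleus (1.44 ± 0.42, edgeR adjusted p = 0.0637), and sham soleus library 4 was at 0.0251 FPKM. Enpp4 averaged 4.28 ± 0.316 FPKM in ischemic soleus and 2.95 ± 1.29 FPKM in sham soleus, with a log2 fold change of 0.27 ± 0.18 and an edgeR adjusted p of 0.358. With Enpp1 these made 4 of 4 tested Enpp relatives above 0 in soleus, with a median log2 fold change of 0.91, and 4 of 4 in gastrocnemius, with a median of 0.52. Of all 11693 tested genes, 5485 were above 0 in soleus and 5775 in gastrocnemius. Enpp6 did not pass the filter and Enpp7 had no row.

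LPA can also be made by enzymes other than autotaxin. None of the 9 tested genes in the list of LPA producing enzymes was called after ischemia in either muscle by edgeR. At an unadjusted edgeR p below 0.05 were 2 in soleus and 0 in gastrocnemius, beside 3256 and 727 of all 11693 tested genes. Pla1a, a phospholipase of phosphatidylserine, picked out here after its values were seen, had 6.51 ± 1.35 FPKM in ischemic soleus and 3.05 ± 0.304 FPKM in sham soleus, groups that did not overlap, with a log2 fold change of 0.62 ± 0.25 and an edgeR adjusted p of 0.125. Without sham soleus library 4 Pla1a was called, at 0.91 with an edgeR adjusted p of 0.0227. Of 9 tested LPA clearing enzymes, acyltransferases that turn LPA into phosphatidic acid among them, 0 were called in soleus, with 3 at an unadjusted p below 0.05. Agpat1 was the one with the smallest p among them, at a log2 fold change of -0.95 ± 0.24 and an edgeR adjusted p of 0.0521. Of 10 YAP and SRF response genes and of 7 sphingosine 1-phosphate genes none was called in soleus by edgeR, with 0 and 3 at an unadjusted p below 0.05. Over all 52 pathway genes the median log2 fold change was 0.26 in soleus and 0.24 in gastrocnemius, beside -0.04 and -0.0035 over all tested genes.

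**Figure D4:**
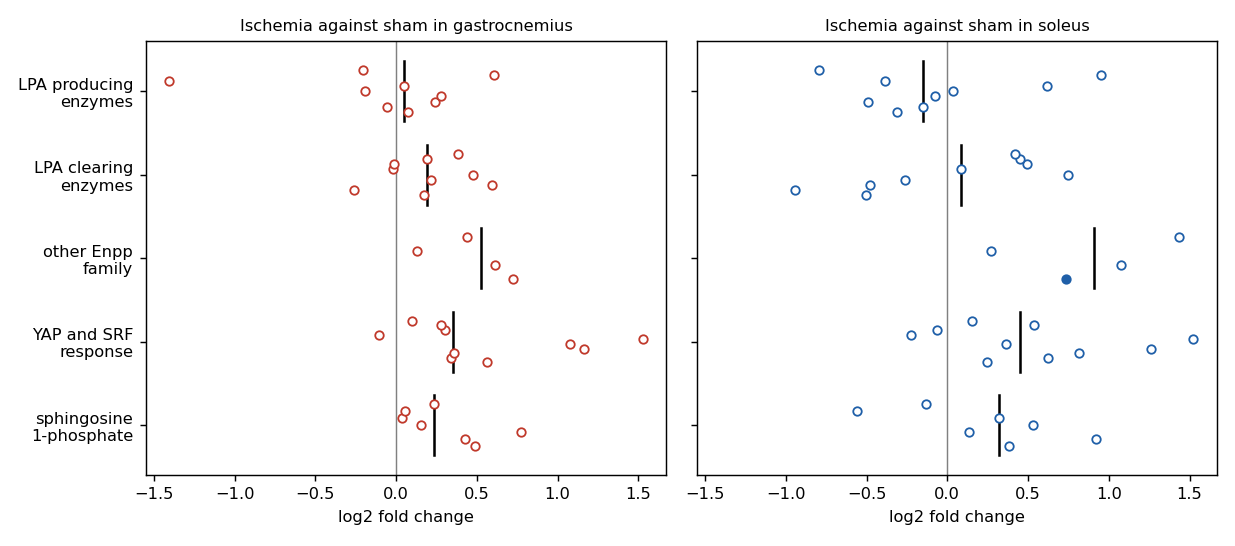
Fitted log2 fold changes of the tested genes of 5 pathway lists for ischemia against sham, in gastrocnemius (left) and soleus (right). Points are genes, black bars are list medians, and the filled point is Enpp1, which edgeR called in soleus at 0.74.

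Between the sham muscles 9 of the 52 genes were called, beside 24.9% of all tested genes, so the pathway did not stand above the background. They were 2 higher and 7 lower in gastrocnemius, and 16 were called without sham soleus library 4, beside 4126 of all genes. Those higher were Lclat1, an acyltransferase of lysophospholipids (log2 fold change 1.81 ± 0.33, edgeR adjusted p = 0.000656), and Gdpd1, a phosphodiesterase that makes LPA from lysophospholipids (0.92 ± 0.19, adjusted p = 0.00162). Those lower were the glycerol phosphate acyltransferases Gpam (-1.62 ± 0.48) and Gpat3 (-0.94 ± 0.31), the LPA acyltransferases Agpat2 (-2.22 ± 0.62) and Agpat3 (-0.53 ± 0.17), the acylglycerol kinase Agk (-0.57 ± 0.20), Rhoa, a small GTPase (-0.73 ± 0.17), and Sphk2, a sphingosine kinase (-1.15 ± 0.24). Without sham soleus library 4 Agpat2 was -1.32 and Agpat3 -0.33, and neither was called. Of the 20 fits without 1 library, Agpat3 was called in 16, Gpat3 in 15 and Agk in 3.

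Between the ischemic muscles 5 of the 52 genes were called, beside 12.6% of all tested genes, and again the pathway did not stand above the background. Without sham soleus library 4, 14 were called, beside 3776 of all genes. Gdpd1 (1.01 ± 0.19), Lclat1 (1.31 ± 0.33) and the LPA acyltransferase Agpat1 (1.04 ± 0.24) were higher in gastrocnemius, with edgeR adjusted p of 0.00153, 0.0126 and 0.00770. Rhoa (-0.54 ± 0.17) and Sgpl1, the lyase that degrades sphingosine 1-phosphate (-0.64 ± 0.19), were lower, with edgeR adjusted p of 0.0385 and 0.0342. Agpat1 shares its position with a gene on the opposite strand, so its value is uncertain. Of the 20 fits without 1 library, Sgpl1 was called in 12 and Rhoa in 10 between the ischemic muscles. Gdpd1, Lclat1 and Rhoa were called in the same direction in both comparisons of the muscles. These use different libraries but share 1 estimate of spread.

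Levels in whole muscle mix fibres with the cells between them, and fewer cells of a type cannot be told apart from less RNA per cell. All 8 skeletal muscle markers were measured in every group, and their summed level was 46234 to 51782 FPKM in ischemic soleus and 55212 to 81832 FPKM in sham soleus (up to 58406 FPKM without sham soleus library 4), and 51649 to 75009 FPKM in ischemic gastrocnemius and 53802 to 82659 FPKM in sham gastrocnemius. The summed level of 10 fibroblast markers was 2406 to 3967 FPKM in ischemic soleus and 650 to 1249 FPKM in sham soleus, with 10 of 10 above 0 in the fit (median log2 fold change 1.21) and 1 called, Pdgfra. In gastrocnemius the fibroblast sum was 456 to 2059 FPKM after ischemia and 357 to 1774 FPKM after sham, and library 1, the highest for Lpar1, was the highest in both groups for fibroblast, macrophage, adipocyte and Schwann cell markers alike. Macrophage markers summed to 126 to 216 FPKM in ischemic soleus and 36.8 to 162 FPKM in sham soleus, where the highest was library 4 and the others reached 93.8 FPKM, below all ischemic soleus libraries. They summed to 20.1 to 126 FPKM in ischemic gastrocnemius and 24.4 to 104 FPKM in sham gastrocnemius. Endothelial markers summed to 78.0 to 114 FPKM in ischemic soleus and 36.4 to 68.7 FPKM in sham soleus, and to 47.1 to 106 FPKM in ischemic gastrocnemius and 27.7 to 61.5 FPKM in sham gastrocnemius, with Cldn5 at 0 in all 5 libraries of both ischemic groups and in 4 of 5 libraries of both sham groups. Without sham soleus library 4 the sham soleus endothelial sum began at 56.5 FPKM. In the fit 6 of 8 tested endothelial markers were above 0 in soleus (median log2 fold change 0.49) and 8 of 8 in gastrocnemius (0.65), none called. Adipocyte markers summed to 159 to 473 FPKM in ischemic soleus and 46.0 to 193 FPKM in sham soleus (from 112 FPKM without sham soleus library 4), and to 47.3 to 222 FPKM in ischemic gastrocnemius and 50.0 to 160 FPKM in sham gastrocnemius. Schwann cell markers summed to 18.7 to 55.7 FPKM in ischemic soleus and 5.58 to 25.1 FPKM in sham soleus, and to 1.30 to 54.0 FPKM in ischemic gastrocnemius and 2.70 to 30.3 FPKM in sham gastrocnemius. Mural markers summed to 127 to 194 FPKM in ischemic soleus and 30.2 to 156 FPKM in sham soleus (from 113 FPKM without sham soleus library 4), and to 114 to 191 FPKM in ischemic gastrocnemius and 79.7 to 142 FPKM in sham gastrocnemius. Macrophage markers above 0 in the fit were 7 of 9 in soleus (median 0.78) and 9 of 9 in gastrocnemius (0.30). In the same order adipocyte markers were 4 of 5 (1.48) and 3 of 5 (0.07), and Schwann cell markers 3 of 3 (1.48) and 2 of 3 (0.71). Mural markers were 6 of 8 (0.18) and 6 of 8 (0.48), and muscle markers 3 of 8 (-0.61) and 3 of 8 (-0.27). Fibroblast markers in gastrocnemius were 8 of 10 (0.28). None of these was called. The part of these cell types in the soleus values of Enpp2, Lpar1, Lpar4, Lpar6 and Plpp3 was not tested.

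**Figure D5:**
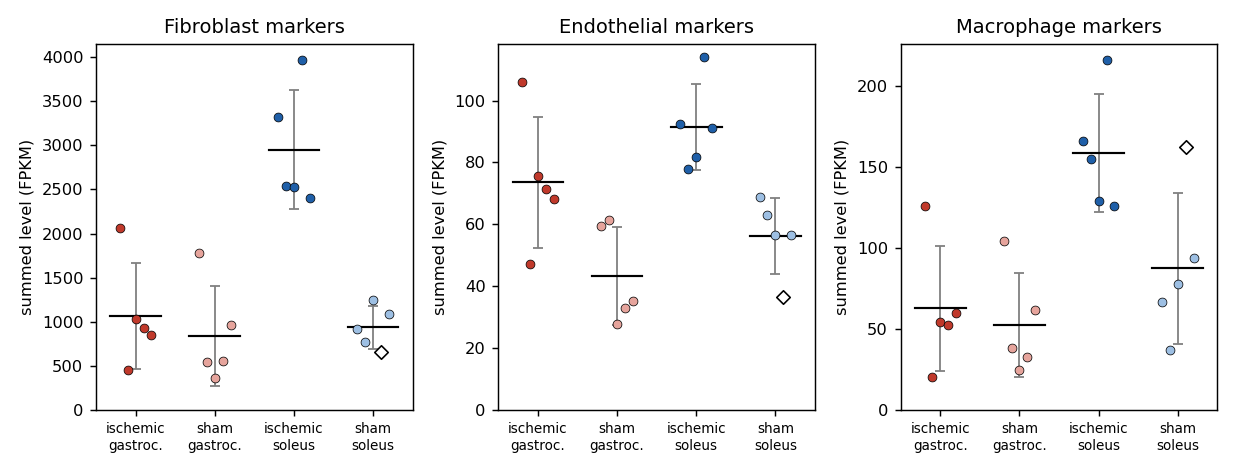
Summed FPKM of the fibroblast, endothelial and macrophage marker lists in the 20 libraries by group (vertical axes, linear from 0). Points are libraries, the black line is the mean, the grey bar is 1 SD and the open diamond is sham soleus library 4. Fibroblast markers lie between 2406 and 3967 FPKM in ischemic soleus and between 650 and 1249 FPKM in sham soleus.

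The genes whose pattern over the 20 libraries was most like that of each member were found by the root mean square difference of centred log2 CPM, the depth-scaled counts after TMM scaling. For Enpp2 they were Mtap (0.213), Snx2 (0.242) and Lipa (0.256), where the median of all tested genes was 0.668. Lipa, which encodes the lysosomal acid lipase, had 6.78 FPKM in ischemic soleus and 3.66 FPKM in sham soleus, and 6.37 FPKM in ischemic gastrocnemius and 5.87 FPKM in sham gastrocnemius. For Lpar1 they were Itgbl1 (0.220), Fbn1 (0.271), the gene of the microfibril protein fibrillin-1, and Slc25a24 (0.273), against a median of 0.955. Fbn1 had 48.1 FPKM in ischemic soleus and 17.3 FPKM in sham soleus, and 15.5 FPKM in ischemic gastrocnemius and 10.5 FPKM in sham gastrocnemius. For Plpp3 they were Sema6a (0.285), Calcrl (0.291), the gene of a receptor for adrenomedullin, and Kitlg (0.292), against a median of 0.795. For Plpp1 they were Ubac2 (0.273), Dhrs13 (0.276) and Vrk3 (0.292), against a median of 0.681. For Lpar6 they were Poglut2 (0.36) and Eml3 (0.369), against a median of 0.799, so its nearest genes were farther away than those of the other 4 tested members. No member was among the 3 nearest of another.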

How the data were processed

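Poly(A) RNA of gastrocnemius and soleus was sequenced from both ends with stranded libraries, per the labels' protocols. The deposited table holds estimated counts per gene, which are whole numbers and not scaled between libraries per the file headers and values, and FPKM, which the authors scaled by transcript length and depth. Multiples of 4 are frequent among small counts (28.3% to 36.5% of those from 1 to 40, by library), so counts are not read as numbers of fragments. Aligner, counting program, genome build and annotation: not given in the sources used here. All 20 libraries were fitted with edgeR 4.0.16 (R 4.3.3; TMM, quasi-likelihood, robust) with 1 term per group, on genes reaching 1 FPKM in 5 or more libraries, and p-values were adjusted over all of them at a threshold of 0.05. The SE of an edgeR log2 fold change was derived as its absolute value divided by the square root of the quasi-likelihood F statistic. The fit was tested on simulated data. DESeq2 1.42.0 and limma 3.58.1 (log2(FPKM + 1), log2(FPKM + 0.1) and voom with library quality weights) served as alternatives. The members and all lists were chosen with earlier results of these data known. Named are all 6 members, the pathway genes called in a comparison (at most 10 each, by smallest p), all other LPA receptors, and for each tested member the 3 genes nearest by root mean square difference of centred log2 CPM (prior count 2). An item of this choice and 1 pathway list are not reported here. Enpp3, Enpp4, Enpp5 and Pla1a were named after their values were seen. Promoter sequences come from RefSeq (GRCr8) and were not tied to the coordinates of the deposited table. Intervals of counting were not used, since the number of libraries limits the precision.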

Additional observations from a re-analysis of the deposited data

Results flagged for a closer look

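In sham gastrocnemius, Enpp2 in library 2 lay apart from its group, at 4.60 FPKM, with a gap to the nearest other library of 0.741 of the range of the group. It was 1 of 24 checks of a member in a group, of which chance alone sets apart about 1 in 20. The value is still inside 1 FPKM of the group mean of 5.57 FPKM.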

How the results depend on the processing

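No member was called in gastrocnemius or for the difference between the ischemia responses under any alternative run, and Enpp2 was called between the sham muscles under all of them. In soleus, where 1 member was called, 2 were called by DESeq2, with DESeq2 size factors in edgeR, with the replicate block (Enpp2 and Plpp1, with Plpp1 at -0.82 ± 0.18) and by limma on log2(FPKM + 1), 3 by limma-voom, and 0 with no filter or with the compared groups alone. Over all genes the soleus calls were 121 in the main fit, 123 with the replicate block and 125 with the compared groups alone. The next paragraph gives those of the other settings. For gastrocnemius against soleus in ischemia, with 0 called, DESeq2, library totals alone, the compared groups alone, the replicate block, both limma fits on FPKM and limma-voom each gave 1. Over all genes the calls there were 1473 in the main fit, 2633 with library totals alone and 1561 with the replicate block. For gastrocnemius against soleus in sham, with 2 called, the compared groups alone and limma-voom gave 1. Without each library in turn the members called ranged over 0 to 2 in soleus, 0 to 1 between the muscles in ischemia and 1 to 2 between the sham muscles, and 0 to 0 in gastrocnemius and for the difference.

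Pathway genes called in gastrocnemius were 0, and 1 with DESeq2 and 2 with limma-voom, beside 0, 11 and 571 of all tested genes. In soleus the 1 call became 7 with DESeq2, 2 with DESeq2 size factors in edgeR, 4 with library totals alone, 0 with no filter and with filterByExpr, 13 with limma on log2(FPKM + 1), 9 with limma on log2(FPKM + 0.1) and 14 with limma-voom. Over all genes the 121 soleus calls became 1444 with DESeq2, 227 with its size factors in edgeR and 398 with library totals alone. They became 2 with no filter, 92 with filterByExpr, 1647 and 852 with limma on FPKM plus 1 and plus 0.1, and 3057 with limma-voom. Between the ischemic muscles the 5 calls became 8 with DESeq2, 3 with no filter or filterByExpr, 17 with the compared groups alone, 15 and 9 with limma on FPKM plus 1 and plus 0.1, and 23 with limma-voom. Over all genes the 1473 calls there became 2198 with DESeq2, 1206 with no filter, 1480 with filterByExpr and 3685 with the compared groups alone. They became 3516 and 2850 with limma on FPKM plus 1 and plus 0.1, and 5105 with limma-voom. Between the sham muscles the 9 calls became 3 with the compared groups alone and 20 with limma-voom. Over all genes the 2911 calls there became 1387 and 5267. Without each library in turn the pathway calls ranged from 0 to 5 in soleus, 3 to 14 between the ischemic muscles and 6 to 16 between the sham muscles, each highest without sham soleus library 4. The calls over all genes ranged from 1 to 745, 849 to 3776 and 2062 to 4126 in the same order. Pla1a in gastrocnemius, at 0.05 and not called, turned to -0.0296 with limma-voom and ranged from -0.10 to 0.18 without each library in turn.

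The replicate numbers are shared by the groups, and the labels do not say whether the same number means the same rat. Same-numbered libraries did not deviate together in every pair. In the ischemic muscles 4 of 5 same-numbered pairs had deviations correlated above 0.1, and for 3 of 5 the nearest library carried the same number. In the sham muscles both counts were 2 of 5. Whether the muscles share rats thus stays unknown, and the replicate block was run as an alternative only. The difference between responses uses all 4 groups, so the compared groups alone give no separate value for it, and a block within treatment gives none for ischemia against sham. The cause of these changes was not tested. Lpar4 and the receptors Lpar2, Lpar3 and Lpar5 are limited by low levels, and 5 libraries a group limit the rest.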
